A study of Mus musculus with 10 samples.

Results

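The mitochondrial ribosomal proteins are the nuclear-encoded proteins that build the ribosome of mitochondria. Their genes were taken as the protein-coding genes whose RefSeq symbol begins with Mrpl, for the large subunit, or Mrps, for the small subunit, followed by a digit. This gave 78 genes of the 46152 counted, 49 of the large and 29 of the small subunit. Mrpl40 had no count in any library and was dropped, which left 77. Of these, 75 had a CPM, the counts per 1000000 counts of the library, above 1 in at least 3 libraries and were tested, 48 of the large and 27 of the small subunit. Mrps10 and Mrps23 stayed below this filter.

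RNA was sequenced from microglia of 10 C57BL/6J mice that were 8 to 12 weeks old. The 5 Vehicle mice were gavaged with 0.1% Tween 80 and 0.5% hydroxymethyl propyl-cellulose, and the 5 GW2580 mice received GW2580 at 80 mg/kg/d, both for 8 days. GW2580 inhibits the kinase of the colony stimulating factor 1 receptor, on which microglia depend for survival and proliferation. Each group held 2 male and 3 female mice, each mouse gave 1 library, and replicates 1 and 2 were male. The cells had been selected magnetically for CD11b, a surface protein that monocytes and granulocytes carry as well, so the libraries are of enriched and not of pure microglia.

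Mitochondria keep a small genome of their own, and every protein it encodes is a subunit of the respiratory chain or of the ATP synthase. These proteins are made by the mitochondrial ribosome, which joins RNAs copied from mitochondrial DNA with proteins that are made in the cytosol and imported. Many of its proteins descend from bacterial ribosomal proteins, and others were added in the course of mitochondrial evolution and have no bacterial counterpart. Microglia, the resident macrophages of the brain, draw on oxidative phosphorylation while they survey the tissue.

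Promoter sequences are given for the described members that hold a binding motif of NRF1 or of the ETS factors before their start, because both are known for driving nuclear genes of mitochondrial proteins. RefSeq windows of GRCm38.p6, from 250 bases before to 50 bases after a start, were at hand for 69 of the 78 members, in 75 windows. The letters GCGCATGCG for NRF1, CCGGAAGT for ETS factors, AAGATGGCG for YY1 and GGGCGG for SP and KLF factors were searched on both strands, and none of these words contains another. The NRF1 letters were in windows of 7 members (10.1%), against 2.61% of the 17479 protein-coding genes with a window, and in 1.75% of all windows. Those for ETS factors were in 12 members (17.4%), against 5.69% of protein-coding genes and 3.89% of all windows. The YY1 letters were found in 8 members (11.6%), against 2.14% and 1.40%. The SP and KLF letters were in 34 members (49.3%), against 49.3% of protein-coding genes and 35.7% of all windows. Of the 7 tested members with the NRF1 letters 1 was called lower after GW2580 as defined further on, against 23 of 59 with a window but without these letters. For the ETS letters it was 5 of 12 against 19 of 54, for YY1 4 of 8 against 20 of 58, and for SP and KLF 13 of 33 against 11 of 33, where 6.7% of all genes tested were called lower. These differences were not tested. The 1 call with the NRF1 letters was Mrpl22, which passed the filter only through Vehicle libraries, so it is no support for a fall. In the stretches that follow, read 5′ to 3′ on the strand of the gene and taken from the bases before the start, the capitals mark the motif, with the ETS letters in the first 7 and the NRF1 letters in the last 4.
Mrpl18, chr17:12916304-12916341, minus strand: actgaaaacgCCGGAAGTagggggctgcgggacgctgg
Mrpl27, chr11:94653716-94653763, plus strand: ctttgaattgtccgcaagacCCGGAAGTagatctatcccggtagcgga
Mrpl3, chr9:105053229-105053267, plus strand: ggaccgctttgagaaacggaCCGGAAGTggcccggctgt
Mrps18c, chr5:100798582-100798629, plus strand: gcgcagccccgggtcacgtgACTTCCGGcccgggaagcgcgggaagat
Mrps22, chr9:98601680-98601710, minus strand: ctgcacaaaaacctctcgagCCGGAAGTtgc
Mrps26, chr2:130563722-130563756, plus strand: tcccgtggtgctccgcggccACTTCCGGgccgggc
Mrps27, chr13:99344717-99344764, plus strand: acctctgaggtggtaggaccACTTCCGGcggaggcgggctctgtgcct
Mrpl10, chr11:97041427-97041475, plus strand: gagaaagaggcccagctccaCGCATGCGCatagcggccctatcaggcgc
Mrpl22, chr11:58171611-58171659, plus strand: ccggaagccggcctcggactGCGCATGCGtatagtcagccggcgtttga
Mrpl9, chr3:94443288-94443335, plus strand: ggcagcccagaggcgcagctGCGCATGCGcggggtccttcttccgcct
Mrps18b, chr17:35916636-35916684, minus strand: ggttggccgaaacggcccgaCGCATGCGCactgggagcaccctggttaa

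The libraries held 12550418 to 20854218 fragments on genes with vehicle and 13228819 to 26079343 with GW2580, of which 18268 to 72909 lay on the 78 members. Markers of other cells were uneven. The summed level of the oligodendrocyte markers ran from 86.5 to 15105 CPM with vehicle and from 111 to 1396 CPM with GW2580, that of the choroid plexus markers from 1206 to 27019 and from 161 to 3528 CPM, and that of the monocyte and granulocyte markers from 182 to 12842 and from 159 to 3605 CPM. The highest sum was in Vehicle 2 for oligodendrocyte, in Vehicle 5 for choroid plexus and in Vehicle 1 for monocyte and granulocyte markers, and the mean of the glial and neuronal markers was highest in Vehicle 2 and Vehicle 5. Astrocyte markers summed to 159 to 694 CPM with vehicle and 148 to 319 CPM with GW2580, neuronal markers to 55.0 to 426 and 47.7 to 138 CPM, and endothelial markers to 43.7 to 76.5 and 67.3 to 82.4 CPM, with Cldn5 at 0 in every library. Microglial markers summed to 17413 to 30199 CPM with vehicle and to 21554 to 70888 CPM with GW2580. Of the fragments that aligned to 1 place, 47.7 to 59.8% lay on no exon with vehicle and 47.1 to 70.8% with GW2580, with the highest values in GW2580 4 (70.8%) and GW2580 1 (68.0%).

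To determine how the mitochondrial ribosomal proteins responded to GW2580, the 5 GW2580 libraries were compared with the 5 Vehicle libraries. Transcripts of the family were lower after GW2580: 26 of 75 members were called lower and 0 were called higher, with a call set at a fold above 2 and p below 0.05 in edgeR's quasi-likelihood test. Over all genes tested the same call took 6.7% lower and 4.01% higher, and over protein-coding genes 9.03% lower, against 34.7% of the members. The fitted change was negative for 73 of the 75 members, with a median of -0.84 on the log2 scale against -0.03 for all 28419 genes tested and -0.09 for the 17759 protein-coding ones. At p below 0.05 and any fold 34 members were lower and 0 higher, where 8.12% of all genes were lower. After Benjamini-Hochberg adjustment over all genes 0 of the 75 members passed 0.05 by edgeR's quasi-likelihood test, its likelihood ratio test and limma-voom, and DESeq2 passed 1, Mrpl22. Of all 28419 genes DESeq2 passed 177, the likelihood ratio test 53 and limma-voom 0. Mrpl22 was above 1 CPM in Vehicle libraries only, so it passed the filter through the group where it was high. The quasi-likelihood test passed 0% of all genes, and the smallest adjusted p of a member was 0.28. Fewer cells of a type and less RNA per cell cannot be told apart in such bulk libraries.

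These counts rested on few libraries. The number of members called lower was 10 without GW2580 1, 8 without GW2580 4, 7 without Vehicle 2 and 17 without GW2580 3, and it was 46 without GW2580 5. In the same order, 3.92, 5.95, 4.66, 4.62 and 13.2% of all genes tested were called lower in these fits. Without both GW2580 1 and GW2580 4, the libraries with the most fragments on no exon, 3 of 75 members were called, Mrpl22, Mrpl58 and Mrps6, where 2.38% of all genes were called lower, and the median change was -0.36. Without both Vehicle 5 and GW2580 5, 47 of 74 members were called, where 15.2% of all genes were, and 47 members passed the adjusted p of 0.05 together with 17.8% of all genes. With the share on no exon as a term in the fit 10 members were called, where 2.86% of all genes were called lower. Scaling by library size alone, without TMM factors, called 13 members lower and 0 higher, where it called 3.08% of all genes lower and 7.47% higher. That scaling moved the median of all genes to 0.23 and that of the members to -0.67, which is 0.90 below it.

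**Figure D1:**
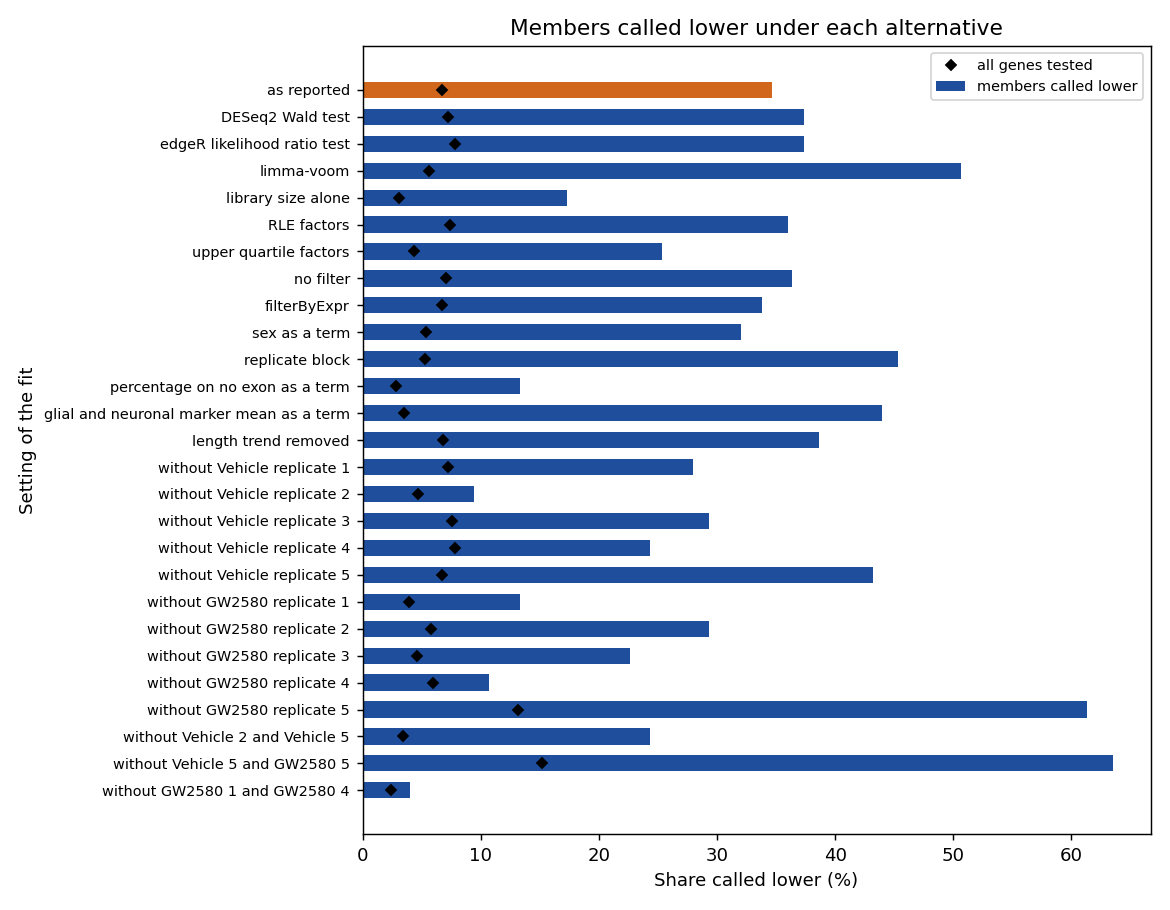
Share of the members tested that were called lower (bars, %) and share of all genes tested that were called lower (diamonds, %) in the fit as reported (orange) and in each alternative fit (blue). The share of members was 34.7% as reported, fell to 3 of 75 without GW2580 1 and GW2580 4, and rose to 47 of 74 without Vehicle 5 and GW2580 5.

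The GW2580 libraries differed from each other in how far the members fell. In GW2580 4, 73 of 75 members were below every Vehicle library, and in GW2580 1 70 were. The median ratio to the vehicle mean, on the log2 scale, was -2.30 in GW2580 4 and -1.99 in GW2580 1. GW2580 3 had 38 members below and 5 above every Vehicle library, with a median of -1.03, and GW2580 2 had 33 below and 2 above, with a median of -0.68. In GW2580 5 only 26 were below and 14 were above every Vehicle library, and the median was -0.29. Over all 10 libraries GW2580 4 was the lowest for 67 of the 75 members, while Vehicle 2 was the highest for 38, GW2580 5 for 14 and Vehicle 5 for 12. Summed over the family, the level was 3647, 5104, 3825, 3859 and 2877 CPM in Vehicle 1 to 5 and 1144, 2462, 2340, 865 and 3787 CPM in GW2580 1 to 5. The sums overlapped, since GW2580 5 stood within the vehicle range. Without TMM factors the sums were 1404, 2366, 1615, 1381 and 4155 CPM in GW2580 1 to 5, in the same order, against 2456 to 4466 CPM with vehicle.

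**Figure D2:**
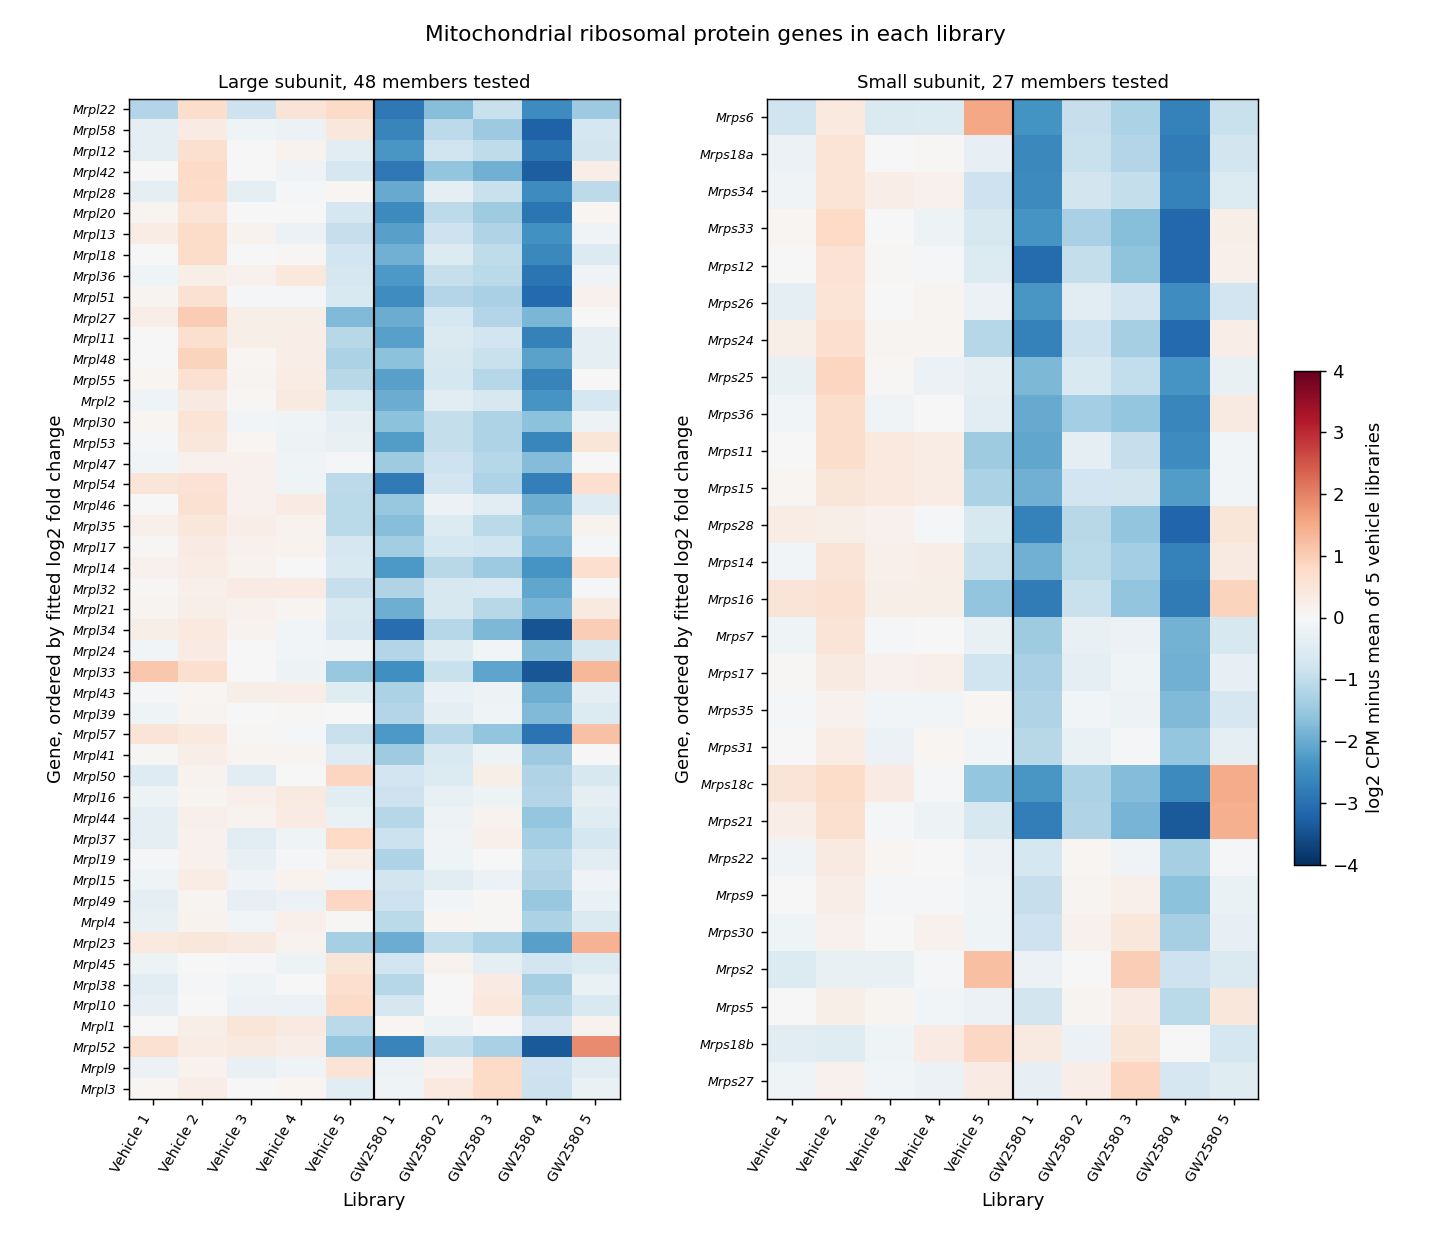
Each cell is the log2 CPM of a member (rows, by subunit and ordered by the fitted change) in a library (columns), minus the mean of the 5 Vehicle libraries. The columns GW2580 1 and GW2580 4 are blue for nearly all members, GW2580 2 and 3 are paler, and GW2580 5 holds both signs. Shades are on the TMM scale, with a factor of 0.69 for GW2580 3 and of 1.61 for GW2580 4.

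Complete separation of the groups was seen for 7 of the 75 members (9.33%), each with all GW2580 libraries below all Vehicle libraries, against 0.985% of all genes tested. They were Mrpl58, Mrps18a, Mrps6, Mrpl12, Mrpl28, Mrps26 and Mrps35, of which 6 were called lower and Mrps35 missed both the fold and the p. Complete separation fixes the exact permutation p at 0.00794, the smallest that the choices of 5 of 10 libraries can give. For these 7 members that p, also where it is given below, only restates the separation.

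Mrpl12 encodes the L7/L12 protein of the stalk, the flexible arm of the large subunit that recruits translation factors. Its level was 83.7, 170.2, 109, 119 and 79.5 CPM in Vehicle 1 to 5 and 21.4, 62.3, 53.1, 14.2 and 64.5 CPM in GW2580 1 to 5. The groups did not overlap, and GW2580 1 and 4 were the lowest. The log2 fold change was -1.38 ± 0.44 (SE, n = 5 each, p = 0.00695 and adjusted p = 0.28 in edgeR's quasi-likelihood test, exact permutation p = 0.00794). The proteins at the base of the stalk did not share one pattern. Mrpl11 was at 20.4 to 68.2 CPM with vehicle (median 51.9) and at 6.67 to 33.4 CPM with GW2580 (median 25.7), which overlapped, with a log2 fold change of -1.18 ± 0.46 (p = 0.0235 in edgeR's test, exact permutation p = 0.0397) and a call. Mrpl10 was at 35.2 to 74.2 CPM with vehicle (median 37.8) and at 20.5 to 59.6 CPM with GW2580 (median 28.8), and its change of -0.34 ± 0.36 was within the spread between mice (p = 0.356 in edgeR's test, exact permutation p = 0.278).

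Mrpl58, also known as Ict1, is a peptidyl-tRNA hydrolase that became part of the large subunit and can free stalled chains. Its level was 47.6, 76.3, 54.6, 51.7 and 83.8 CPM in Vehicle 1 to 5 and 9.81, 29.6, 22.2, 6.39 and 38.5 CPM in GW2580 1 to 5. All GW2580 libraries were below all Vehicle libraries, also the highest of them, GW2580 5. The log2 fold change was -1.56 ± 0.45 (p = 0.00375 in edgeR's test, exact permutation p = 0.00794), 2.95-fold lower. Mrpl28 was at 78.0, 169, 81.0, 98.7 and 109 CPM in Vehicle 1 to 5 and at 25.2, 78.0, 55.1, 17.8 and 49.8 CPM in GW2580 1 to 5. GW2580 2 and Vehicle 1 met at 78.0 CPM, so this separation was barely complete, and the log2 fold change was -1.25 ± 0.42 (p = 0.00947 in edgeR's test, exact permutation p = 0.00794). Mrpl30 fell by 1.08 ± 0.34 on the log2 scale (p = 0.00694 in edgeR's test, exact permutation p = 0.0159), from 31.6 to 58.5 CPM with vehicle to 12.7 to 34.5 CPM with GW2580.

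**Figure D3:**
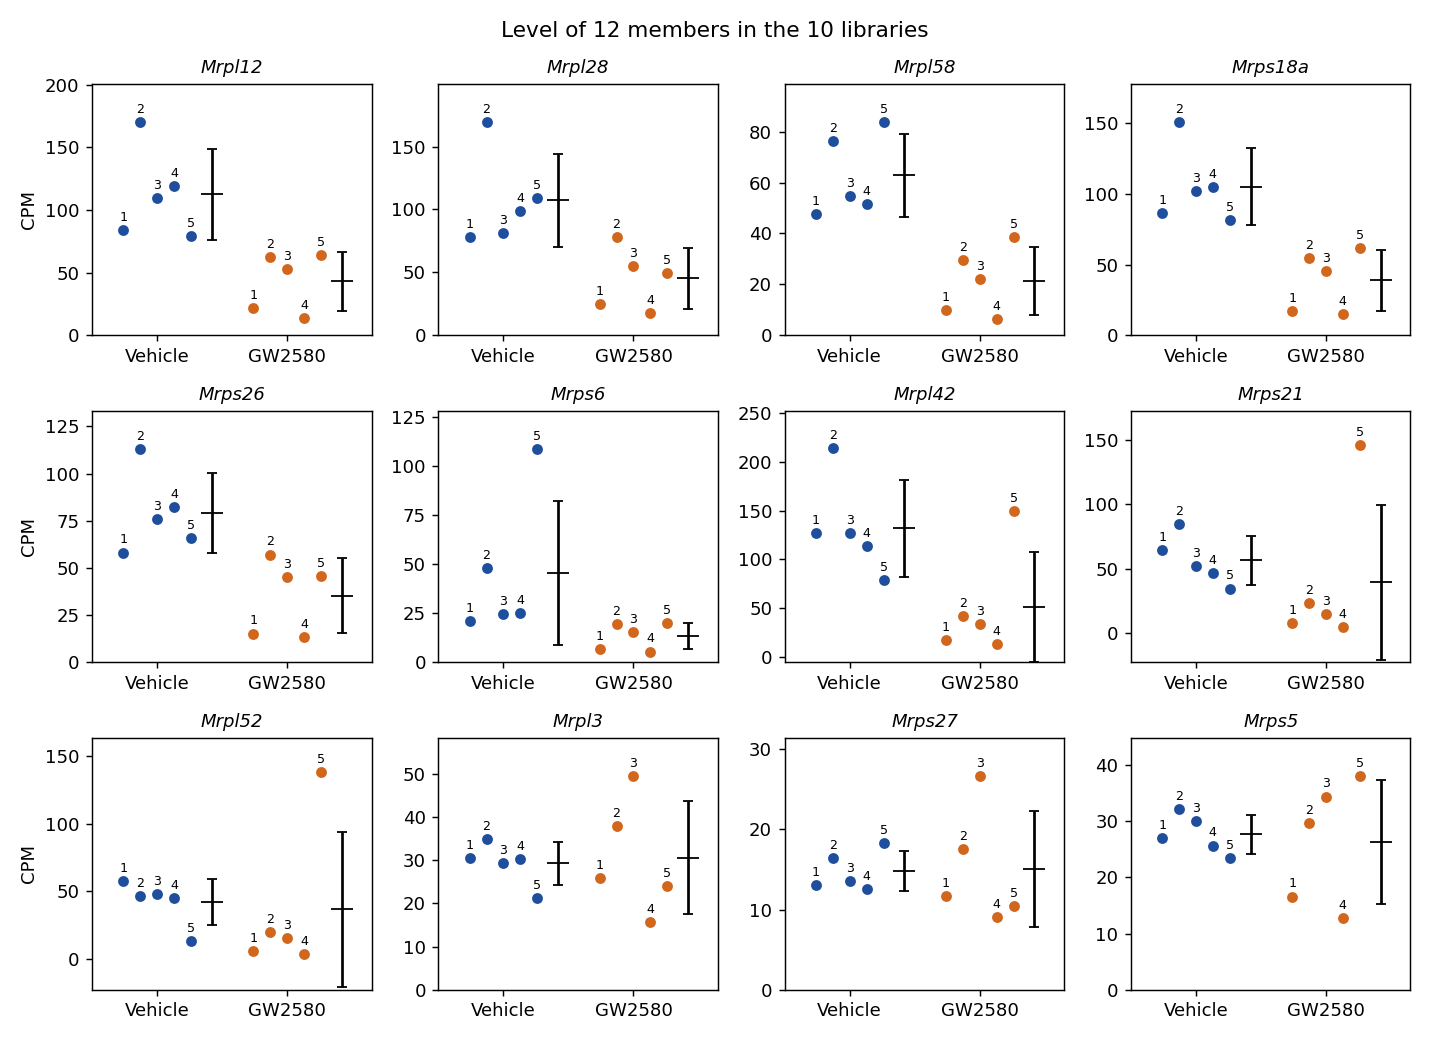
Level in CPM of 12 members in each library, with the replicate number above each point, Vehicle in blue and GW2580 in orange. The black line and bar beside each group give the mean and SD (n = 5). Mrpl12, Mrpl28, Mrpl58, Mrps18a, Mrps26 and Mrps6 separate the groups, GW2580 5 stands far above the other GW2580 libraries for Mrpl42, Mrps21 and Mrpl52, and Mrpl3, Mrps27 and Mrps5 overlap.

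Of the proteins in the core of the large subunit, Mrpl2, near the site where peptide bonds form, was called lower, at 52.0 to 102 CPM with vehicle (median 81.4) and 15.3 to 58.3 CPM with GW2580 (median 48.8). Its log2 fold change was -1.08 ± 0.40 (p = 0.0179 in edgeR's test, exact permutation p = 0.0159). Mrpl3, which lies close by, had the highest fitted change of the family, 0.06 ± 0.33 (p = 0.85 in edgeR's test, exact permutation p = 0.921). It was at 30.6, 35.0, 29.3, 30.3 and 21.2 CPM in Vehicle 1 to 5 and at 25.9, 37.9, 49.5, 15.8 and 24.0 CPM in GW2580 1 to 5, and GW2580 3 and 2 were above all Vehicle libraries. Mrpl27, whose bacterial relative reaches the catalytic centre, was called lower at -1.18 ± 0.49 (p = 0.0312 in edgeR's test, exact permutation p = 0.0873), but GW2580 5, at 62.4 CPM, exceeded Vehicle 5, at 18.0 CPM. At the exit tunnel, Mrpl24 had a log2 fold change of -0.74 ± 0.33 (p = 0.0406 in edgeR's test, exact permutation p = 0.0238), short of a fold of 2, and Mrpl23 one of -0.45 ± 0.63 (exact permutation p = 0.19). Mrpl45, which tethers the ribosome to the inner membrane, was at 37.0 to 60.1 CPM with vehicle and 25.0 to 47.2 CPM with GW2580, with a change of -0.44 ± 0.29 (p = 0.156 in edgeR's test, exact permutation p = 0.0873).

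In the small subunit, Mrps18a had the strongest evidence with a high level. It was at 86.7, 151, 102, 105 and 81.5 CPM in Vehicle 1 to 5 and at 17.2, 54.8, 45.6, 14.8 and 62.0 CPM in GW2580 1 to 5, with no overlap. The log2 fold change was -1.44 ± 0.42 (p = 0.00446 in edgeR's test, exact permutation p = 0.00794), 2.71-fold lower. Mrps18a, Mrps18b and Mrps18c are related to the same bacterial protein, S18, but the product of Mrps18a sits on the large subunit in structures despite its name. Its relatives did not share the call. Mrps18c was at 11.5 to 56.7 CPM with vehicle and at 6.57, 14.0, 10.2, 5.68 and 94.9 CPM in GW2580 1 to 5. GW2580 5 was the highest of all 10, and of the other GW2580 libraries only GW2580 2 was above the lowest Vehicle library. The log2 fold change was -0.55 ± 0.72 (p = 0.457 in edgeR's test, exact permutation p = 0.159). Mrps18b was close to the filter in every library, at 1.26 to 3.31 CPM with vehicle and 1.08 to 2.61 CPM with GW2580. Mrps30, which also sits on the large subunit, was at 39.1 to 49.95 CPM with vehicle and 17.7 to 60.7 CPM with GW2580 (log2 fold change -0.24 ± 0.34, p = 0.502 in edgeR's test, exact permutation p = 0.325).

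Mrps6 had the largest fitted fall of the small subunit, -1.76 ± 0.52 (p = 0.00454 in edgeR's test, exact permutation p = 0.00794). Its level was 21.1, 48.3, 24.7, 25.3 and 109 CPM in Vehicle 1 to 5 and 6.98, 19.4, 15.4, 5.59 and 19.97 CPM in GW2580 1 to 5. The groups did not overlap, but Vehicle 5 was above every other library, and without Vehicle 2 and Vehicle 5 the log2 fold change was -0.82 and no longer a call. Of the exon bases of Mrps6, 18.6% are also exons of Slc5a3. Mrps26 was at 58.2, 113, 75.8, 82.3 and 65.8 CPM in Vehicle 1 to 5 and at 15.4, 57.2, 45.3, 13.5 and 45.6 CPM in GW2580 1 to 5, where GW2580 2 came close to Vehicle 1. Mrps26 fell by 1.16 ± 0.42 on the log2 scale (p = 0.0156 in edgeR's test, exact permutation p = 0.00794). Mrps34, needed for the stability of the small subunit, was at 49.0 to 129 CPM with vehicle and 13.3 to 59.99 CPM with GW2580, which overlapped only through Vehicle 5, and it fell by 1.31 ± 0.46 (p = 0.0124 in edgeR's test, exact permutation p = 0.0238).

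Mrps12, of the decoding centre, was at 61.3, 93.9, 63.9, 60.7 and 42.7 CPM in Vehicle 1 to 5 and at 7.34, 32.4, 20.4, 6.96 and 72.2 CPM in GW2580 1 to 5. GW2580 5 stood among the Vehicle libraries and the other 4 below them, and the call, at -1.21 ± 0.56 (p = 0.0485 in edgeR's test, exact permutation p = 0.0397), was near its limit. Mrps7, which binds the small rRNA in the head of the subunit, missed the fold at -0.79 ± 0.36 (p = 0.0478 in edgeR's test, exact permutation p = 0.0238). Mrps16, needed for assembly of the subunit, was at 11.7 to 53.1 CPM with vehicle and at 4.93, 18.8, 11.5, 4.83 and 65.3 CPM in GW2580 1 to 5, which gave -0.90 ± 0.66 (p = 0.191 in edgeR's test, exact permutation p = 0.119). Mrps22, a protein without a bacterial counterpart, was at 10.6 to 16.2 CPM with vehicle and 4.97 to 13.2 CPM with GW2580 (-0.37 ± 0.31, p = 0.254 in edgeR's test, exact permutation p = 0.183). Mrps36 was called lower at -1.11 ± 0.50 (p = 0.0417 in edgeR's test, exact permutation p = 0.0397), and its product is now known as a subunit of the 2-oxoglutarate dehydrogenase complex and not of the ribosome. Mrps27 and Mrps5 changed little. Mrps27 was at 12.5 to 18.3 CPM with vehicle and 9.09 to 26.6 CPM with GW2580 (0.03 ± 0.33, p = 0.932 in edgeR's test, exact permutation p = 0.825), and Mrps5 at 23.5 to 32.2 and 12.8 to 38.0 CPM (-0.07 ± 0.33, p = 0.824 in edgeR's test, exact permutation p = 0.556).

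**Figure D4:**
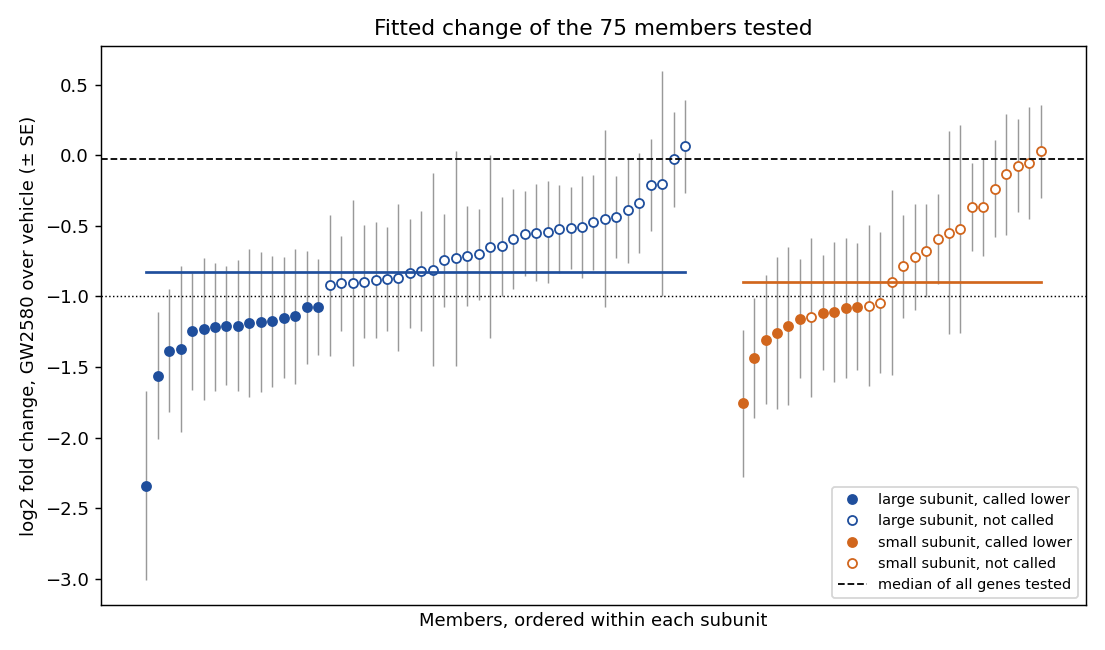
Fitted log2 fold change of each of the 75 members tested (points, with SE bars), ordered within the large (blue) and the small subunit (orange), with filled points called lower and lines at the subunit medians of -0.83 and -0.90. The dashed line is the median of all genes tested, -0.03, the dotted line marks a fold of 2, and 2 members lie above 0.

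The subunits did not stand apart. Of the large subunit 16 of 48 members (33.3%) were called lower and of the small subunit 10 of 27 (37.0%), both against 6.7% of all genes, and the medians were -0.83 and -0.90 on the log2 scale. The mean log2 CPM of the large subunit exceeded that of the small subunit by 0.23 ± 0.04 with vehicle and 0.25 ± 0.06 with GW2580 (SD, n = 5), so their balance moved by less than its spread between mice. With Mrps30 and Mrps18a counted in the large subunit the calls were 17 of 50 and 9 of 25, with medians of -0.83 and -0.90. Members classed as having a bacterial counterpart had 16 of 45 calls and a median of -0.88, and members classed as without one 10 of 30 and -0.69. The class without one held Mrps18a and Mrps18b, although both are related to the bacterial S18. It also held Mrps36, whose product is not now counted as ribosomal. Within the subunits the order was not the same: 12 of 30 against 4 of 18 in the large subunit, and 4 of 15 against 6 of 12 in the small subunit. There the larger share was of members classed as without a counterpart, with Mrps18a and Mrps36 among the calls.

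Per length of exon, levels with vehicle spanned 0.574 to 191 CPM per kb, with a median of 27.6 CPM per kb for the large and 41.1 CPM per kb for the small subunit. The highest of the large subunit were Mrpl42 at 191 ± 72.5 (SD, n = 5), Mrpl12 at 115 ± 37.1, Mrpl52 at 102 ± 41.3, Mrpl33 at 101 ± 57.8 and Mrpl28 at 101 ± 34.8 CPM per kb. The last 4 did not differ beyond their spread. The small subunit was led by Mrps18a at 122 ± 31.8, Mrps15 at 119 ± 43.3, Mrps21 at 111 ± 37.3, Mrps34 at 100.4 ± 32.6 and Mrps26 at 82.1 ± 21.9 CPM per kb, where neighbours in this order differed by less than their SD. Low levels were those of Mrpl19 at 4.08 ± 0.609 and Mrpl1 at 4.22 ± 1.45 in the large subunit, and of Mrps25 at 5.71 ± 2.31 and Mrps27 at 7.42 ± 1.25 CPM per kb in the small one, besides Mrpl22 and Mrps18b. Of the exon bases of Mrps25, 58.4% are shared with Nr2c2 and of Mrpl19 22.8% with Gcfc2, and fragments that fit exons of more than 1 gene were not counted. In all, 20 members share exon bases with another gene, and pseudogenes are annotated for Mrpl23, Mrpl27, Mrpl48 and Mrps36.

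The lowest counts belonged to members that the annotation places more than once. The exons of 6 members, Mrps35, Mrpl22, Mrps23, Mrpl40, Mrps18b and Mrps10, were listed on 2 or 3 sequences of the assembly, the chromosome and further scaffolds, and fragments that align to more than 1 place were not counted. Mrpl40 had 0 fragments in all libraries, Mrps23 at most 2, Mrps10 at most 6, Mrpl22 1 to 36 and Mrps18b 16 to 59. Mrps35 was the exception, with 143 to 435 fragments. Among protein-coding genes 25.8% of the 1118 with exons on more than 1 sequence had no count in any library, against 1.79% of the 20751 with exons on 1 sequence. Levels of these 6 members, per length above all, therefore cannot be set beside those of the others. Mrpl22 had the smallest p of the family (-2.34 ± 0.67, p = 0.00345 in edgeR's test, exact permutation p = 0.0159). It rested on few fragments, 6, 27, 7, 29 and 36 in Vehicle 1 to 5 and 1, 4, 10, 2 and 5 in GW2580 1 to 5. Only Vehicle 2, 4 and 5 were above 1 CPM, at 1.89, 1.67 and 2.02 CPM, against 0.05 to 0.56 CPM with GW2580. Mrpl22 thus passed the filter only through the group where it was high, and its p is no support for a fall. Without the 6 members, 25 of 72 were called lower and the median was -0.85.

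Exon length went along with how far a member fell in a given library. The 25 members with the shortest exons (412 to 1049 bases) had 12 calls and a median of -1.07, the 25 of 1055 to 2299 bases 7 calls and -0.59, and the 25 of 2360 to 7205 bases 7 calls and -0.68. With all protein-coding genes tested split at 1049 and 2299 bases, without outer limits, 18.1%, 13.3% and 6.87% were called lower, from short to long. Length thus also moved with the calls outside the family. In GW2580 4 the median difference from the vehicle mean was -2.70 for the short, -1.87 for the middle and -1.71 for the long members, and in GW2580 1 it was -2.39, -1.27 and -1.22 on the log2 scale. In GW2580 5 the sign differed, with 0.21, -0.33 and -0.37. With a smooth trend of the counts on length removed from each library, 29 members were called lower, where 6.8% of all genes were.

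**Figure D5:**
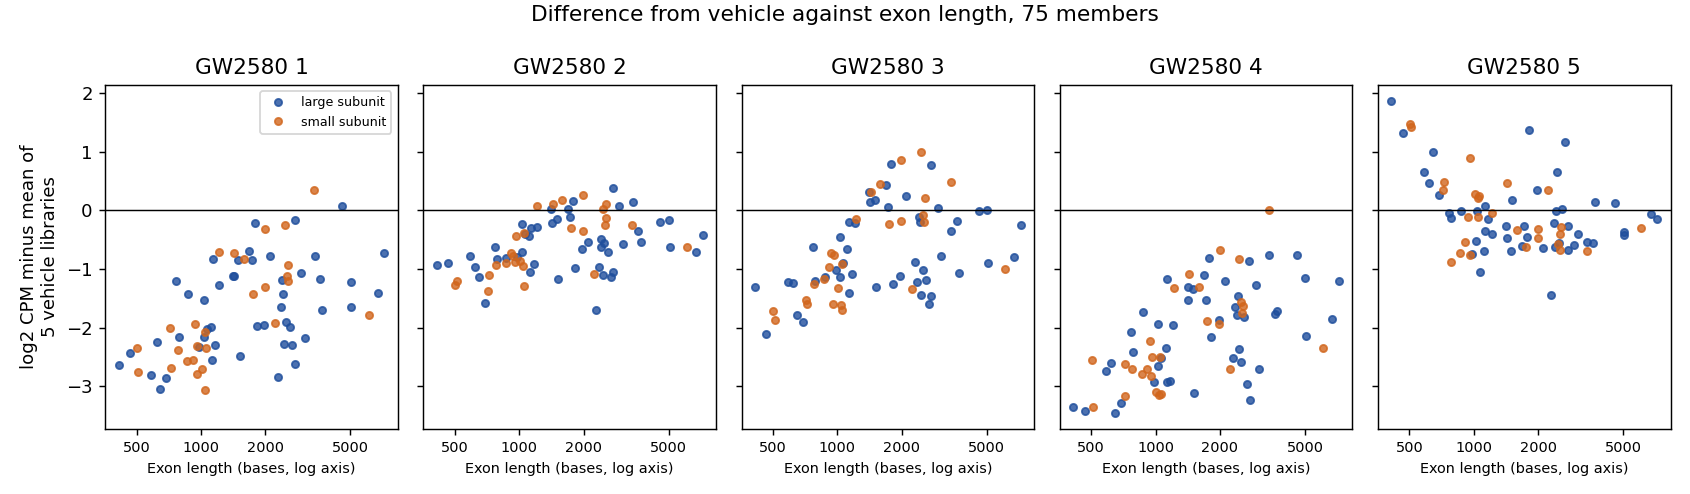
Difference of log2 CPM from the mean of the 5 Vehicle libraries (vertical) against exon length in bases on a log axis (horizontal) for the 75 members, in each GW2580 library, with the large subunit in blue and the small in orange. In GW2580 1 and 4 the shortest members lie lowest, and in GW2580 5 they lie highest.

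The shortest members varied most. Mrpl52, of 412 bases, was at 57.6, 46.3, 48.3, 45.3 and 12.9 CPM in Vehicle 1 to 5 and at 5.96, 19.6, 15.1, 3.55 and 139 CPM in GW2580 1 to 5. Mrpl33, of 466 bases, was at 83.9, 62.5, 39.4, 34.7 and 14.0 CPM and at 7.24, 21.5, 9.11, 3.60 and 100.1 CPM. Mrps21, of 510 bases, was at 64.6, 84.7, 52.5, 46.7 and 34.8 CPM and at 7.91, 23.5, 14.7, 5.21 and 146 CPM. In each of them, as in Mrps18c, GW2580 1 to 4 were below Vehicle 1 to 4, and GW2580 5 exceeded all Vehicle libraries. Against Vehicle 5, GW2580 2 was higher except in Mrps21, and GW2580 3 was higher in Mrpl52. Mrpl52, Mrpl33 and Mrps21 were not called, at -0.20 ± 0.80, -0.73 ± 0.76 and -0.52 ± 0.74 on the log2 scale (SE). Across the 75 members the SD of log2 CPM over the GW2580 libraries was 1.11 at the median for the short, 0.74 for the middle and 0.69 for the long members, and over the Vehicle libraries 0.53, 0.43 and 0.35. Across genes, which share these libraries, Spearman's rho of exon length with the SD over GW2580 libraries was -0.59 (n = 75) and with the fitted change 0.29. Mrpl42, of 689 bases, was called lower (-1.37 ± 0.59, p = 0.0353 in edgeR's test, exact permutation p = 0.0397) at 127, 214, 127, 113 and 78.8 CPM in Vehicle 1 to 5 and 17.0, 42.0, 33.2, 12.7 and 149.6 CPM in GW2580 1 to 5, again with GW2580 5 apart.

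No member passed p below 0.05 for a difference of the GW2580 response between the sexes in edgeR's quasi-likelihood test, where 2.52% of all genes did, and the smallest p was 0.0721, with an adjusted p of 1.00. DESeq2 and edgeR's likelihood ratio test each passed 1 member. With 2 male mice per group such a difference was hard to detect.

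The partners of the ribosome were counted from lists. Of its 5 subunits with other names 1 was called lower (20%, against 6.7% of all genes), and the list had a median of -0.72. It was Aurkaip1, at -1.15 ± 0.41 (adjusted p = 0.28 in edgeR's test). Of the assembly factors 0 of 25 were called, with a median of -0.14, and 1, Rpusd3, was lower at p below 0.05 in edgeR's test. Over all genes tested 8.12% were lower at that p. Of the translation factors 0 of 12 were called (0 at p below 0.05 in edgeR's test, median -0.17). Of the mitochondrial aminoacyl-tRNA synthetases 0 of 20 were called, with a median of -0.01. Of the synthetases Hars2, at 0.85 ± 0.34 (adjusted p = 0.292), and Ears2, at 0.67 ± 0.28 (adjusted p = 0.303), were higher at an unadjusted p below 0.05 in edgeR's test. Of the genes that transcribe mitochondrial DNA and handle its RNA 1 of 17 was called lower (5.88%), against 6.7% of all genes. It was Hsd17b10, a subunit of the mitochondrial RNase P, at -1.39 ± 0.43 (adjusted p = 0.28 in edgeR's test). The median of that list was 0.09, and Elac2, which trims the 3′ ends of mitochondrial tRNAs, was higher at an unadjusted p below 0.05, at 0.71 ± 0.31 (adjusted p = 0.319 in edgeR's test). Protein import had 2 of 25 calls, among them Timm17a of the inner membrane translocase at -1.27 ± 0.35 (adjusted p = 0.28 in edgeR's test), with a median of -0.70. Its share of calls, 8%, was near that of all genes, 6.7%, and of protein-coding genes, 9.03%.

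Both rRNAs of the ribosome were called lower, mt-Rnr1 at -2.24 ± 0.84 (adjusted p = 0.28 in edgeR's test) and mt-Rnr2 at -1.54 ± 0.66 (adjusted p = 0.312 in edgeR's test). In both, Vehicle 2 stood far above the other libraries. mt-Rnr2 was at 705, 3845, 558, 514 and 989 CPM in Vehicle 1 to 5 and at 282, 404, 231, 221 and 1136 CPM in GW2580 1 to 5, so GW2580 5 lay above 4 Vehicle libraries. The mRNAs encoded by mitochondrial DNA were not analysed here. The nuclear subunits of oxidative phosphorylation, which assemble with the products of this ribosome, had 16 of 77 calls lower (20.8%) and a median of -0.9997, with the smallest p for Ndufv2 of complex I at -1.63 ± 0.42 (adjusted p = 0.28 in edgeR's test). The proteins of the cytosolic ribosome had 6 of 80 calls lower (7.5%) and a median of -0.64, a share near those of all genes and of protein-coding genes, 6.7% and 9.03%. All of these lists share libraries with the members, and differences between lists were not tested.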

How the data were processed

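Microglial RNA of 10 mice, 1 library per mouse, was amplified with a SMART-Seq kit and sequenced in pairs. The authors aligned the reads with STAR to GRCm38, and the deposited counts are whole fragments per RefSeq gene, counted over exons without strand by featureCounts 1.6.3 per the file headers and not normalized. Fragments that aligned to more than 1 place or fit several genes were not counted. The deposited gene length is the other value used.

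Groups, sex and numbers came from the sample labels. Of the 46152 genes, 28419 had a CPM above 1 in at least 3 libraries. Their counts were scaled by TMM factors and tested for treatment with edgeR 4.0.16 (quasi-likelihood, no further term), which was checked on simulated counts. A call needed a fold above 2 and p below 0.05, the thresholds of the study. CPM use TMM-scaled library sizes, and log2 CPM a prior count of 2. Single members were also compared by two-sided exact permutation of the 10 libraries. limma 3.58.1 and DESeq2 1.42.0 served as alternatives. Named members were, per subunit, the 5 highest and 3 lowest per length, the 6 smallest p among lower and 3 among higher ones, the 3 nearest to 0, and those with a listed role. Mrps35 and the members called without GW2580 1 and 4 were named after their values were seen. The members and lists were chosen with earlier results of these data known. The p-values set the difference of the groups against the spread between mice. With 1 library per mouse this spread includes that between library preparations. Since no molecular identifiers were used, amplified copies count as fragments.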

Additional observations from a re-analysis of the deposited data

Results flagged for a closer look

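Among 37 named members, 13 values stood apart from the other 4 libraries of their group by Dixon's criterion, out of 74 groups of 5 examined. GW2580 5 gave 8 of them, all high: Mrpl23 at 163 CPM, Mrpl42 at 149.6 CPM, Mrps21 at 146 CPM, Mrpl52 at 139 CPM, Mrpl33 at 100.1 CPM, Mrps18c at 94.9 CPM, Mrps16 at 65.3 CPM and Mrps36 at 23.2 CPM. Vehicle 5 gave 4, low for Mrpl23 at 24.9 CPM and Mrpl52 at 12.9 CPM, and high for Mrpl10 at 74.2 CPM and Mrpl45 at 60.1 CPM. Vehicle 2 gave 1, high, for Mrps25 at 59.2 CPM.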

How the results depend on the processing

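The number of members called lower was 26 as reported and 13 with library size alone (9 large, 4 small), 10 with the share on no exon as a term (8 large, 2 small), and 47 without Vehicle 5 and GW2580 5 (30 large, 17 small), where 47 also passed an adjusted p of 0.05. In a fit without GW2580 1 and GW2580 4, chosen after seeing the data, it was 3 (2 large, 1 small). Over all genes these fits called 6.7, 3.08, 2.86, 15.2 and 2.38% lower, in the same order. Upper quartile factors called 6 of the small subunit and the fit without Vehicle 2 and Vehicle 5 called 5. Of all genes these fits called 4.33% and 3.42% lower. Leaving out 1 library at a time gave 7 to 46 members, 4 to 30 of the large and 3 to 16 of the small subunit. The share of all genes called lower ran from 3.92 to 13.2% in these fits. The cause of these moves was not tested. Members called higher were 0 in every fit, and the median of the members stayed negative, from -1.49 without Vehicle 5 and GW2580 5, where that of the small subunit was -1.56, to -0.36 without GW2580 1 and GW2580 4. Over single libraries left out it ran from -1.41 to -0.63.

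The median of the large subunit minus that of the small was 0.07 as reported, 0.18 with limma-voom, -0.0599 without a filter, -0.0596 without Vehicle 2 and Vehicle 5, 0.16 without Vehicle 5 and GW2580 5, and 0.0059 to 0.19 over single libraries left out, so no order of the subunits held. Members with a response that differed by sex at p below 0.05 were 0 as reported, 1 with DESeq2, 1 with the likelihood ratio test, 1 with the length trend removed, 6 with the glial and neuronal marker mean as a term and 0 to 10 over single libraries left out, the most without GW2580 4. DESeq2 passed 1 member, Mrpl22, at an adjusted p of 0.05, and 177 of all 28419 genes.

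With the replicate number as a replicate block 34 members were called, 22 large and 12 small, where 5.27% of all genes were called lower. The difference of the subunit medians was 0.15. The labels share only numbers between the groups. Deviations of same-numbered libraries correlated at -0.39 to 0.13 over genes, and only GW2580 2 correlated best with its own number. The block changed the sign of Mrpl3 to -0.0248 and of Mrps27 to -0.0768, both uncalled.

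Among the 37 named members, those whose sign turned were not called as reported, and signs of other members were not followed one by one. Mrps27 was at -0.0097 with DESeq2, -0.0095 with RLE factors and -0.0729 with limma-voom, and Mrpl3 at -0.0254 with limma-voom, -0.0239 with the marker mean as a term and -0.0581 without Vehicle 5 and GW2580 5. Mrpl9 was at 0.0894 with the marker mean as a term, 0.0482 with the length trend removed, 0.11 with library size alone, 0.0381 with upper quartile factors, 0.28 with the share on no exon, 0.22 without Vehicle 2 and Vehicle 5, 0.13 without Vehicle 5 and GW2580 5, and 0.23 without GW2580 1 and GW2580 4. Mrps18b was at 0.0384, 0.20 and 0.0816 with the marker mean, library size alone and upper quartile factors, at 0.11 with the share on no exon, 0.0020 with sex as a term, 0.11 without Vehicle 2 and Vehicle 5, and 0.28 without Vehicle 5 and GW2580 5. Mrps5 was at 0.0746 with library size alone, 0.0771 with the share on no exon and 0.31 without GW2580 1 and GW2580 4, and Mrpl10 at 0.0164 with the share on no exon. Without GW2580 1 and GW2580 4, Mrpl52 was at 0.47, Mrps30 at 0.14, Mrps21 at 0.13, Mrpl23 at 0.12 and Mrps18c at 0.0572. Over single libraries left out Mrps27 ran from -0.28 to 0.17, Mrpl3 from -0.18 to 0.24, Mrpl9 from -0.32 to 0.13, Mrps18b from -0.20 to 0.23, Mrps5 from -0.33 to 0.11 and Mrpl52 from -2.02 to 0.10.

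Of 1028 values of named members under alternatives, 868 kept direction and side of the threshold. These include 74 values with another prior count for log2 CPM, outside the alternative fits, of which all 74 kept both. Mrpl12, Mrpl28, Mrpl58 and Mrps18a had p below 0.05 in all 26 alternative fits. All 4 were named for a small p in these same libraries, which the fits share, so this is no independent support. Without GW2580 1 and GW2580 4 only Mrpl58 of them was still called. Mrpl12 was then at -0.90, Mrpl28 at -0.81 and Mrps18a at -0.95, short of a fold of 2. Mrpl22 had p below 0.05 in the 20 fits that gave it a p. It was above 1 CPM in Vehicle libraries only, so these 20 are no support for its fall. The members near 1 CPM, Mrpl22 and Mrps18b, are limited by their few fragments.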
